A study of Sus scrofa with 2 samples.

Results

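Translation initiation and elongation factors are the proteins that place the ribosome on the start codon of a messenger RNA and then move it along the coding sequence. The genes described here are the 49 messenger RNA entries of the deposited tables whose symbol begins with EIF1 to EIF6, EEF1 or EEF2, leaving out the kinases that phosphorylate eIF2 and eEF2. They are 49 of 34570 entries in all, and of 22826 entries typed as mRNA.

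The RNA came from follicular granulosa cells of female Chinese Erhualian pigs (Sus scrofa). Granulosa cells line the ovarian follicle, nurse the oocyte and make steroid hormones. One group received NC-siRNA, the control here, and the other received SMAD4-siRNA, directed at the mediator that carries TGF-beta and BMP signals into the nucleus. Each group is 1 library, made from RNA of 3 individuals mixed in equal parts. The labels give neither the age of the animals, nor the siRNA dose, nor the time after transfection, nor whether the animals of the 2 groups were the same. There are no replicates, so no test between the conditions exists and every difference below is one between 2 libraries. In such bulk RNA, fewer cells of a type and less RNA per cell cannot be told apart.

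In initiation, eIF2 carries the initiator methionyl-tRNA to the small ribosomal subunit as a complex with GTP, and eIF2B recharges eIF2 with GTP after each round. The large eIF3 complex holds the small subunit ready, while the eIF4 group binds the cap of the messenger RNA and unwinds its leader. In elongation, eEF1A delivers aminoacyl-tRNAs, the eEF1B subunits recharge eEF1A, and eEF2 moves the ribosome by a codon. Cells use these factors to set the rate of protein synthesis, through phosphorylation of eIF2 under stress and through the eIF4E binding proteins under growth control.

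The label of the group and its content were not the same throughout. EIF2C1, EIF2C2, EIF2C3 and EIF2C4 are old names of Argonaute genes, which act in RNA silencing. The rule takes them by their letters alone, and they are described apart. EIF4EBP1, EIF4EBP2, EIF4EBP3 and EIF4ENIF1 bind eIF4E rather than being factors themselves, EIF4A3 is known as a core protein of the exon junction complex, and EEF1E1 is an auxiliary protein of the aminoacyl-tRNA synthetase complex. Other canonical factors have no entry under the rule, among them EIF1, EIF5, EIF3B, EIF3C, EIF3F and EIF4B.

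Values are RPKM that the authors scaled by the upper quartile, a level per length that allows genes to be compared. The libraries held at least 17680952 reads on genes for control and 17394711 for SMAD4 siRNA, recovered as whole numbers from the values. These reads are the smallest that fit, so each read number below is a lower bound. Each ratio is the plain SMAD4 siRNA value over the control value. The range after it is an exact Clopper-Pearson 95% interval of the split of reads, which covers counting error only and neither animals nor transfections. SMAD4, the target, stood at 85.0 with control siRNA and 47.9 with its own siRNA, a ratio of 0.563 (0.497 to 0.639). Of 12 granulosa markers 8 were measured, with INHBA, NR5A1, INHA, FOXL2 and NR5A2 at control values between 131 and 663, FSHR at 4.93, and CYP19A1, AMH, INHBB and CYP11A1 listed at 0 in both libraries. Their ratios went both ways, with INHBA at 1.31 (1.22 to 1.41), NR5A1 at 0.849 (0.741 to 0.973) and the other 6 intervals holding 1. The summed level was 1387 in control and 1545 in the SMAD4 siRNA library, of which INHBA alone made up 663 and 868. Of 7 theca markers ACTA2, DCN, COL3A1 and PTCH1 were measured, all at a ratio below 1, as were 9056 of 16609 measured genes. Of these 4, 3 had an interval wholly below 1, beside 21.5% of all measured genes, and that of PTCH1 held 1. ACTA2 stood at 549693 in control, rank 1 among mRNA entries there, and at 341635 in the SMAD4 siRNA library. The theca enzyme CYP17A1, INSL3 and LHCGR were at 0. Of 4 measured endothelial markers, ERG at 0.582 (0.442 to 0.763) and PECAM1 at 0.875 (0.793 to 0.964) had intervals wholly below 1. Over all measured genes 21.5% did. KDR at 2.36 (0.790 to 8.46) on 5 and 13 reads and VWF at 0.778 (0.216 to 2.71) on 7 and 6 reads held 1. The 4 measured leukocyte and 2 measured oocyte markers had intervals that held 1. Of 11 pancreatic acinar genes listed, 3 had no entry and 6 were measured. These 6 had intervals wholly below 1, beside 21.5% of all measured genes, and 2 of them had at least 100 reads. Their summed value was 474 in control and 148 in the SMAD4 siRNA library. CELA1, not measured, had 0 reads in control and 1 in the SMAD4 siRNA library. The part of these marker genes in the results below was not tested.

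Of the 49 entries, 45 had a mean value of at least 1 over both libraries and were measured in that sense. EIF1AY, EIF6 and EIF4E1B, a form of the cap binder known from oocytes, were listed at 0 in both libraries. EIF6 keeps the ribosomal subunits apart in all cells, so its 0 cannot be read as lack of expression. The entry EIF2S3 held 0 reads in control and 1 read in the SMAD4 siRNA library. The 45 measured entries took 441432 reads in control and 465311 in the SMAD4 siRNA library, and all entries of the rule together 2.50% and 2.68% of all reads on genes.

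The levels spanned a wide range, from 11.1 for EIF2C3 to 86414 for EEF1A1 in control. EEF1A1, the carrier of aminoacyl-tRNAs, stood at 86414 in control and 76416 in the SMAD4 siRNA library and was at rank 10 among mRNA entries in both. EEF2, the translocase, came next with 36824 and 34202, ahead of EEF1G with 30812 and 30502, and these genes alone held 69.3% and 66.2% of the reads of the group. EIF5A, which helps the ribosome past difficult peptide bonds, had 14750 and 16435. Among the initiation factors under their own symbol EIF3L led, with 6331 and 6798. EIF4E, which binds the cap, stood at only 92.4 and 92.2.

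**Figure D1:**
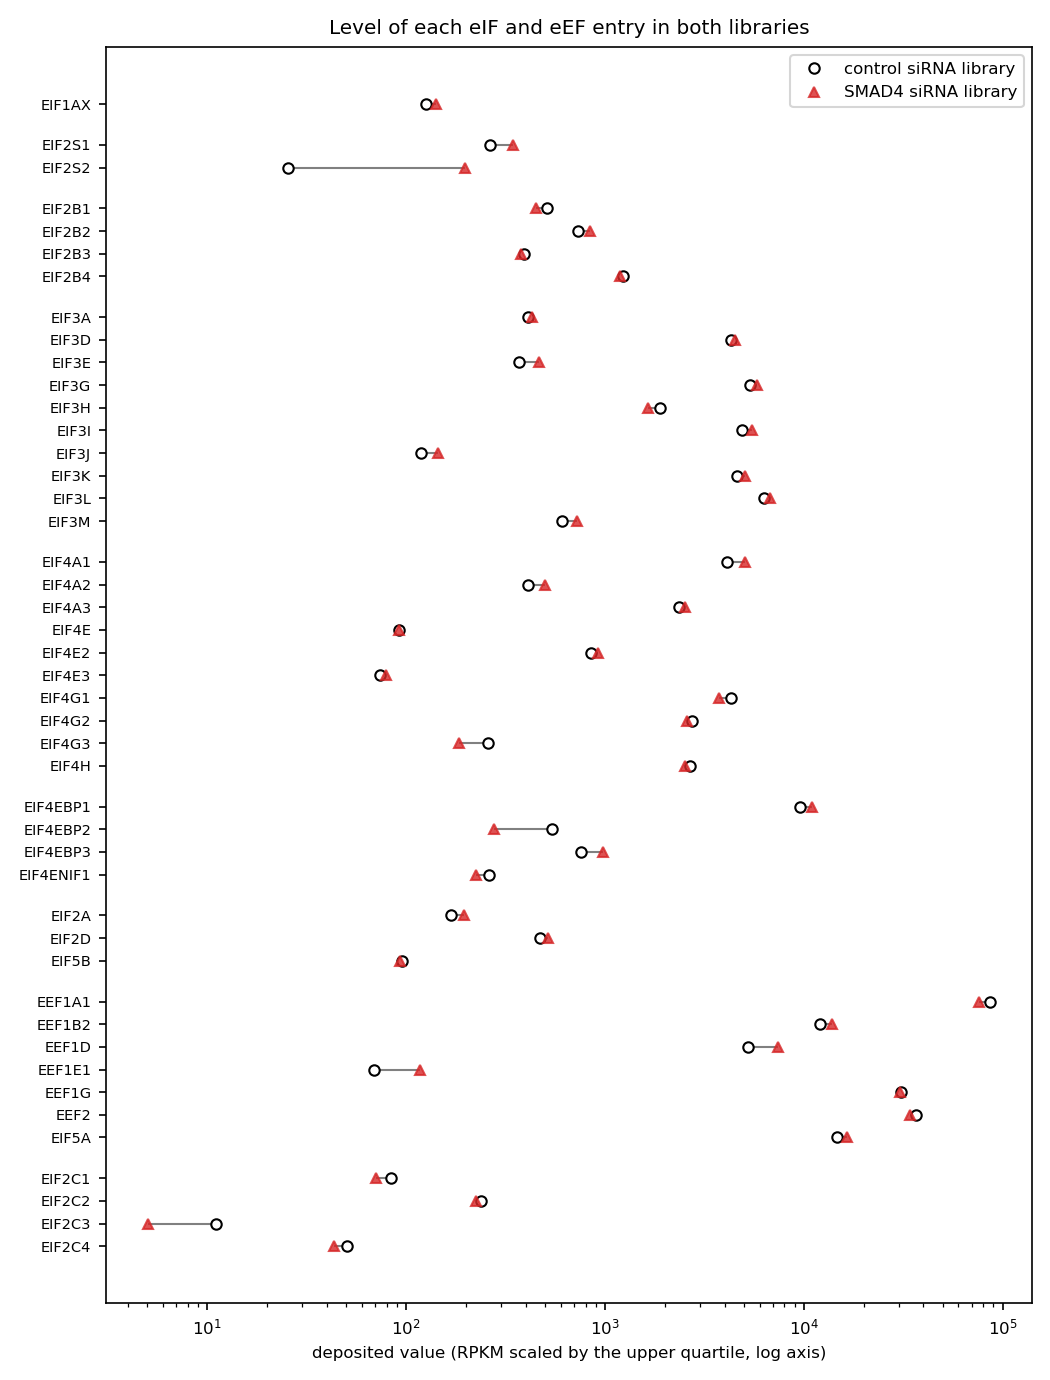
Deposited value (RPKM scaled by the upper quartile, log axis) of each of the 45 measured entries in the control siRNA library (open circles) and the SMAD4 siRNA library (triangles), grouped by role. Most pairs lie close together, from EIF2C3 at 11.1 and 5.05 to EEF1A1 at 86414 and 76416, and the widest gap is that of EIF2S2, at 25.5 and 199.

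Most factors differed little between the libraries, and slightly more of them were higher than lower after SMAD4 siRNA. The median log2 ratio of (value + 1) over the 45 measured entries was 0.10, against -0.05 over the 16609 measured genes. A plain ratio above 1 was found for 26 of the 45, a share of 57.8%, beside 45.5% of all measured genes. By 2-fold on that log2 scale 1 entry was higher, EIF2S2, where 7.17% of all measured genes were, and 1 was lower, EIF2C3, where 6.68% were. Of the 45, 44 had at least 100 reads, and among all genes with at least 100 reads 1.32% were higher and 1.12% lower by 2-fold. The share of entries past 2-fold is therefore below or near the background.

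Counting intervals gave a further description. An interval lay wholly above 1 for 20 of the 45 entries, beside 12.7% of all measured genes, and wholly below 1 for 10, beside 21.5%. For 15 entries the interval held 1. Intervals narrow with reads, so the same counts were taken at a minimum of 1000 reads, chosen after the values were seen. There 17 of 32 entries lay above 1 and 9 below, beside 19.8% and 46.6% of the 4139 such genes. These counts turn on how the libraries are scaled. Scaling to the same sum of values adds 0.12 to every log2 ratio of plain values and scaling to the same reads adds 0.16, and each carried 9 of the 45 entries from below 1 to above it. With the same sum 26 intervals lay above 1 and 4 below, beside 21.3% and 13.4% of all measured genes. With the same reads 29 lay above and 3 below, beside 24.7% and 11.2%. Of genes with at least 1000 reads, 38.8% lay above and 27.7% below with the same sum. With the same reads those shares were 45.5% and 22.7%. The entries whose interval lay below 1 under all 3 scalings were EEF1A1, EIF4EBP2 and EIF4G3, while that of EIF4G1 reached 1 with the same reads. The intervals printed below are those as deposited. Relative to the median of all genes the entries stood 0.15 higher as deposited and 0.15 higher with the same reads. With each library rescaled to a sum of 1e+06, where 44 entries were measured, they stood 0.16 higher. Genes with a larger smallest length had lower ratios in these libraries. The smallest length is the shortest at which the values give whole reads, so it is a lower bound of the true length. The median log2 ratio of all genes with at least 100 reads went from -0.01 in the shortest of 5 equal groups by smallest length to -0.14 in the longest, and that of the entries from 0.15 (8 entries) to -0.09 (7 entries). Over the 44 entries with at least 100 reads Spearman's rho between log2 ratio and smallest length was -0.32, a description across genes of 2 libraries, and the part of length in the counts was not tested.

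**Figure D2:**
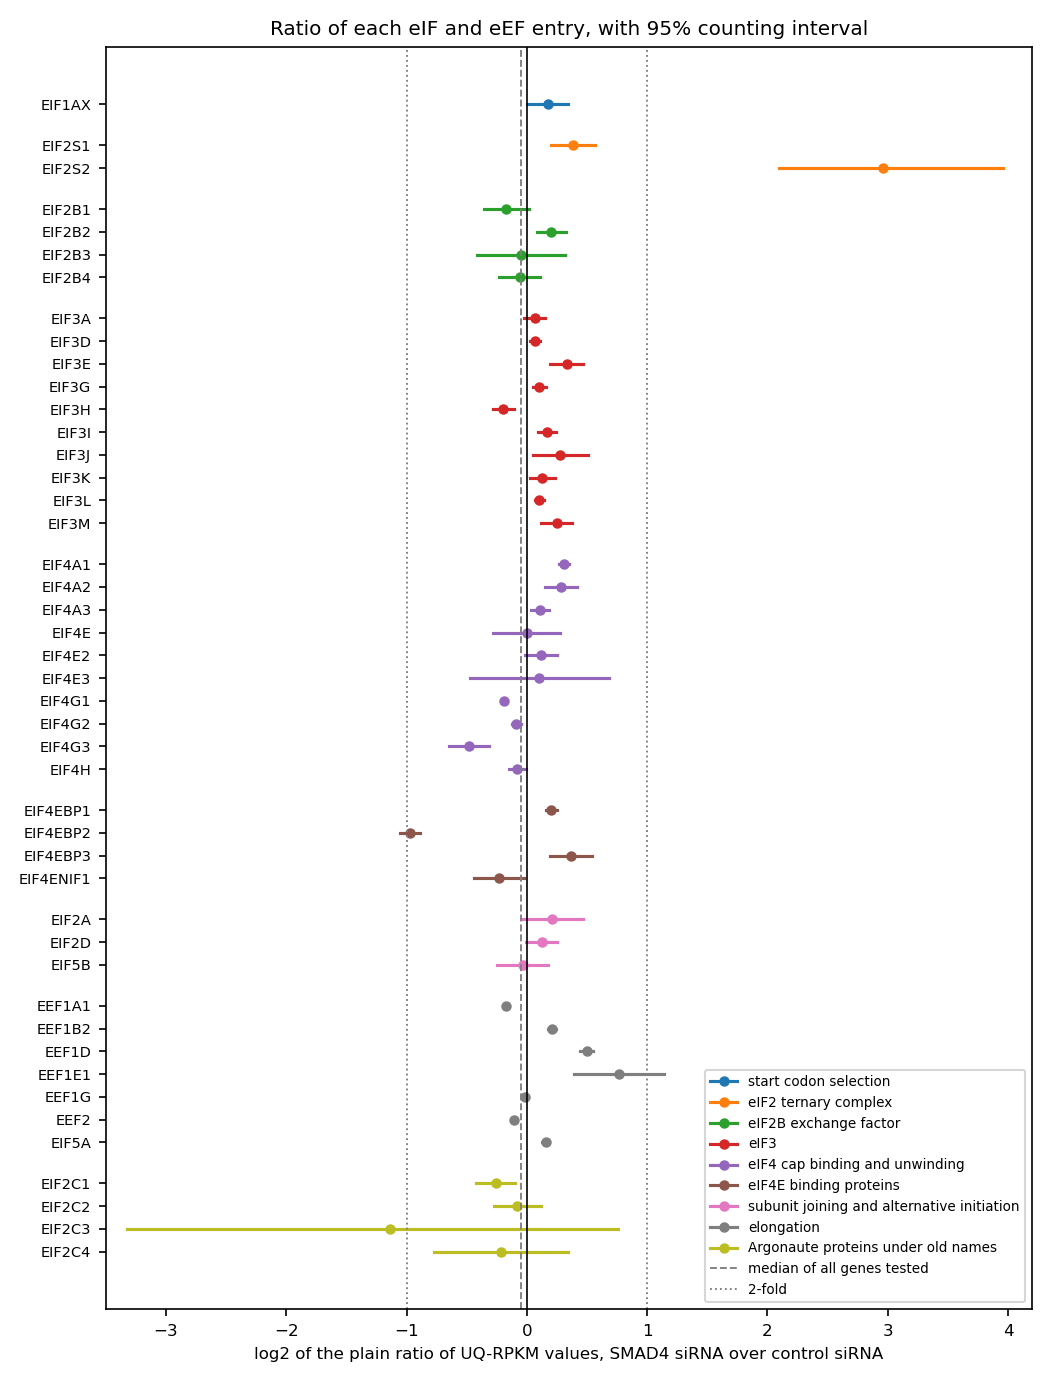
Plain ratio of each measured entry, SMAD4 siRNA over control siRNA, on a log2 axis, with lines for the 95% counting interval, colours for the role, a dashed line at the median of all genes tested and dotted lines at 2-fold. Most entries sit within a narrow band around 0, with EIF2S2 far to the right, EIF4EBP2 near the lower 2-fold line and a very wide interval for EIF2C3. Scaling the libraries to the same sum would move every point 0.12 to the right.

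EIF2S2, the beta subunit of eIF2, which contacts the factors that act on eIF2 during initiation, was the exception, and it had been singled out for its ratio. It stood at 25.5 in control, on 12 reads or more, and at 199 after SMAD4 siRNA, on 103 reads or more. That is a ratio of 7.80 (4.28 to 15.6). Among the 9664 genes with at least 100 reads, 6 had a ratio at least as high, itself included. Among the 3586 genes with 50 to 250 reads, 5 did, and 118 were higher by 2-fold.

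Its partners in the eIF2 complex did not show that size. EIF2S1, the alpha subunit that stress kinases phosphorylate, went from 264 to 344, at a ratio of 1.30 (1.15 to 1.48). EIF2S3, the gamma subunit that binds GTP and the initiator tRNA, has nearly no reads under its own symbol, but the reference table names a further entry, listed without a symbol, as EIF2S3. That entry had 642 and 911 reads and values of 135 and 175, at a ratio of 1.29 (1.16 to 1.43). The alpha and gamma subunits thus had nearly the same ratio, with intervals that overlap, and the interval of EIF2S2 lay wholly above both. The proportion of alpha to gamma was 1.95 (1.72 to 2.21) in control and 1.97 (1.78 to 2.19) in the SMAD4 siRNA library.

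The value of EIF2S2 that stood apart from its partners was the one in the control library. There it was at 0.0966 (0.0495 to 0.170) of the level of EIF2S1 and at 0.189 (0.0969 to 0.332) of that of EIF2S3. In the SMAD4 siRNA library it was at 0.578 (0.464 to 0.713) of EIF2S1 and at 1.14 (0.921 to 1.40) of EIF2S3, between the levels of its partners. Subunits of 1 complex differ in level elsewhere in these libraries too, from 119 for EIF3J to 6331 for EIF3L within eIF3 in control. As EIF2S2 was chosen for its ratio, these proportions restate that ratio against its partners and are a description only. The smallest length at which its values give whole reads was 528 bases. The labels do not say how the authors divided reads among entries, and the counting interval does not cover it.

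The exchange factor eIF2B showed no such step. EIF2B2, a regulatory subunit, went from 733 to 843, at a ratio of 1.15 (1.06 to 1.25). EIF2B1 was at 510 and 453, EIF2B3 at 393 and 380 and EIF2B4 at 1240 and 1191, with ratios between 0.889 and 0.967 and intervals that held 1. EIF2B5, the catalytic subunit, was found in an entry without a symbol at 644 and 534, a ratio of 0.830 (0.758 to 0.908) whose interval held 1 with the same reads. The median log2 ratio of the 4 subunits under the rule was -0.05, beside -0.05 for all measured genes, and their summed value was 2875 in control and 2867 in the SMAD4 siRNA library.

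**Figure D3:**
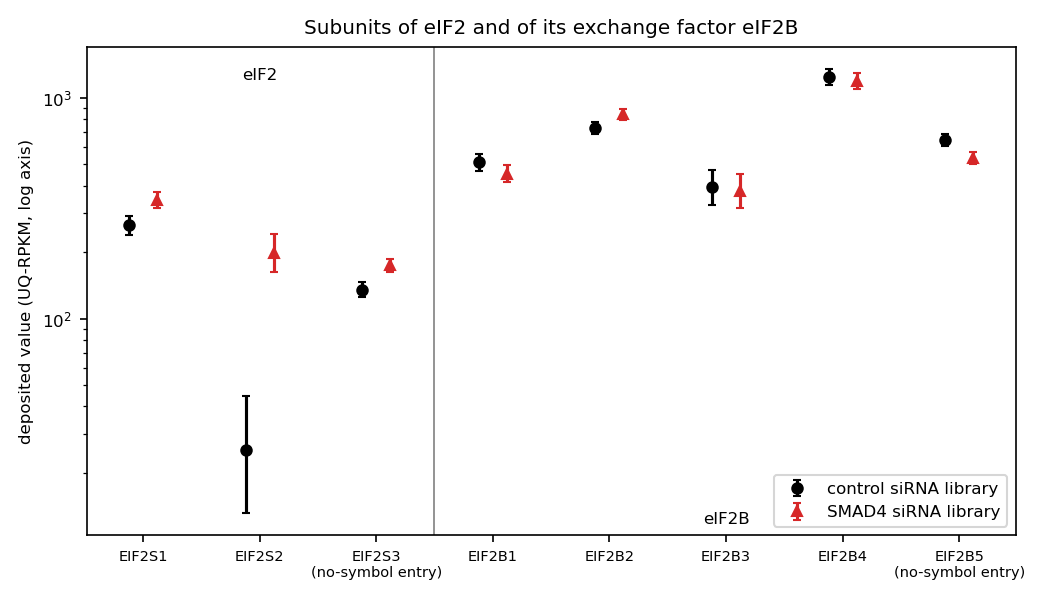
Deposited value (log axis) of the subunits of eIF2 and of its exchange factor eIF2B in the control siRNA library (circles) and the SMAD4 siRNA library (triangles), with bars for exact Poisson 95% intervals of the reads, which cover counting error only. EIF2S3 and EIF2B5 are entries without a symbol that the reference names. EIF2S2 in control, at 25.5 (13.2 to 44.6), is the lowest point, and in the SMAD4 siRNA library it lies at 199 (162 to 241) between EIF2S1 and EIF2S3.

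Start codon selection rests on eIF1 and eIF1A, which keep the scanning ribosome open until the start codon is met. EIF1AX was at 126 and 142, a ratio of 1.13 (0.9996 to 1.27) that included 1 as deposited and lay above 1 under both other scalings. EIF1 was found in an entry without a symbol, at 6549 in control and 5433 in the SMAD4 siRNA library, a ratio of 0.830 (0.803 to 0.857). Its close relative EIF1B, also in such an entry, went from 721 to 608, at a ratio of 0.844 (0.747 to 0.954). Both kept a ratio below 1 under the 2 other scalings, at 0.900 and 0.929 for EIF1 and 0.916 and 0.945 for EIF1B, but the interval of EIF1B then held 1. The level of EIF1 was 9.09 times that of EIF1B in control and 8.93 times in the SMAD4 siRNA library. How reads were divided between such similar genes is not known.

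The eIF3 subunits were nearly all slightly higher in the SMAD4 siRNA library. Of 10 measured, 9 had a ratio above 1 and 8 an interval wholly above 1, with a median log2 ratio of 0.12. Over all measured genes 45.5% had a ratio above 1, 12.7% an interval above 1 and a median of -0.05. Among genes with at least 1000 reads 36.5% had a ratio above 1 and 19.8% an interval above 1. EIF3E went from 370 to 465, at a ratio of 1.26 (1.14 to 1.38), the highest of the complex. EIF3J, a loosely attached subunit, was at 119 and 145 with 1.21 (1.03 to 1.43), and EIF3M at 609 and 724 with 1.19 (1.09 to 1.30). Among the subunits with a ratio above 1, the abundant ones had smaller ratios than EIF3E, EIF3J and EIF3M, and so did the scarce EIF3A. EIF3I went from 4870 to 5470, with a ratio of 1.12, EIF3K from 4637 to 5074 with 1.09, EIF3G from 5396 to 5801 with 1.07, EIF3L with 1.07 and EIF3D from 4296 to 4507 with 1.05. EIF3A, the scaffold, was at 410 and 428 and its interval held 1.

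EIF3H was the subunit on the other side. It went from 1885 to 1646, at a ratio of 0.873 (0.821 to 0.929). Its ratio stayed below 1 when the libraries were scaled to the same sum, at 0.948, and to the same reads, at 0.977, but its interval then held 1, up to 1.01 and 1.04. The other 9 subunits had intervals wholly above 1 under both, beside 21.3% of all measured genes with the same sum and 24.7% with the same reads. Among genes with at least 1000 reads those shares were 38.8% and 45.5%. As deposited, its interval does not overlap that of EIF3A, the next in ratio, at 1.05 (0.983 to 1.11). The summed value of the complex was 28923 in control and 31058 in the SMAD4 siRNA library. Levels within the complex fell into an abundant set, EIF3L, EIF3G, EIF3I, EIF3K, EIF3D and EIF3H, and a scarce set with EIF3M, EIF3A, EIF3E and EIF3J, in the same order in both libraries except that EIF3E stood above EIF3A in the SMAD4 siRNA library.

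The eIF4 group went both ways, along its parts, and the median of its log2 ratios was 0.05 for 10 measured entries. The helicases that unwind the leader were higher: EIF4A1 went from 4117 to 5095, at a ratio of 1.24 (1.20 to 1.27), and EIF4A2 from 410 to 498, at a ratio of 1.21 (1.11 to 1.33). Their proportion was nearly the same, 10.04 (9.35 to 10.8) in control and 10.2 (9.62 to 10.9) in the SMAD4 siRNA library. EIF4A3 had 2349 and 2535, a ratio of 1.08 (1.03 to 1.13). The scaffolds that join the cap complex to the ribosome were lower, EIF4G2 so long as the values are taken as deposited. EIF4G1 went from 4301 to 3770, at a ratio of 0.877 (0.860 to 0.894), and EIF4G3 from 259 to 185, at a ratio of 0.715 (0.638 to 0.802). EIF4G2, which lacks the eIF4E binding site, was at 2747 and 2586, a ratio of 0.941 (0.916 to 0.967) that turned to 1.02 with the libraries scaled to the same sum, while EIF4G1 and EIF4G3 were at 0.952 and 0.776. With the same reads the interval of EIF4G1 reached 1. The scaffolds are long genes, with smallest lengths of 5505 bases for EIF4G1, 4183 for EIF4G2 and 2965 for EIF4G3, and the part of length in their ratios was not tested.

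The cap-binding proteins had intervals that held 1 as deposited. EIF4E was at a ratio of 0.999 (0.825 to 1.21), EIF4E2, a related cap binder, went from 850 to 922 with 1.08 (0.989 to 1.19), and EIF4E3 from 74.2 to 79.8 with 1.07 (0.722 to 1.61) on 49 and 58 reads. EIF4E2 lay wholly above 1 when scaled to the same sum, at 1.18 (1.07 to 1.29), and to the same reads, while EIF4E and EIF4E3 held 1 under both. The helicase cofactor EIF4H was at 2679 and 2537, a ratio of 0.947 (0.901 to 0.996) that turned to 1.03 with the same sum. EIF4B, its partner in stimulating eIF4A, was found in an entry without a symbol at 1566 and 1381, a ratio of 0.882 (0.839 to 0.927) whose interval held 1 under both other scalings. The helicase EIF4A1 was 44.6 times as abundant as EIF4E per length in control and 55.3 times in the SMAD4 siRNA library, with intervals of 38.9 to 51.3 and 48.5 to 63.2 that overlap.

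Among the proteins that hold eIF4E back, EIF4EBP2 stood apart. EIF4EBP2, a repressor that releases eIF4E when mTOR phosphorylates it, went from 546 on 3414 reads or more in control to 278 on 1916 reads or more after SMAD4 siRNA. Its ratio was 0.510 (0.482 to 0.539), and 19 of the 4139 genes with at least 1000 reads had a ratio as low or lower, itself included. Its log2 ratio of -0.97 on the (value + 1) scale stopped just short of 2-fold, and its plain ratio was 0.553 with the libraries scaled to the same sum. EIF4EBP1, the most abundant of the family, went the other way, from 9563 to 11018, at a ratio of 1.15 (1.11 to 1.19). So did EIF4EBP3, from 757 to 974, at a ratio of 1.29 (1.14 to 1.45).

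EIF4EBP1 makes up most of the family, and the sum followed it. The summed value of these binding proteins was 10866 in control and 12270 in the SMAD4 siRNA library. EIF4EBP2 was at 0.0571 of the level of EIF4EBP1 in control and at 0.0252 in the SMAD4 siRNA library. EIF4EBP2 has a smallest length of 7029 bases, in the longest of the 5 groups by length, whose median log2 ratio was -0.14. EIF4ENIF1, which carries eIF4E into the nucleus and into RNA granules, was at 263 and 224, a ratio of 0.853 (0.739 to 0.985). These directions were the same under both other scalings, but the interval of EIF4ENIF1 then held 1.

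Subunit joining and the alternative initiation factors had ratios between 0.975 and 1.16. EIF5B, the GTPase that joins the large subunit, was at 95.2 and 92.9, a ratio of 0.975 (0.844 to 1.13). EIF2D, which can deliver tRNA without GTP, went from 473 to 516, at a ratio of 1.09 (0.996 to 1.19), and EIF2A from 169 to 196, at a ratio of 1.16 (0.967 to 1.38). All of these intervals held 1 as deposited, and those of EIF2D and EIF2A lay above 1 under both other scalings.

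The 7 measured elongation entries, with EEF1E1 counted among them, went both ways, with 4 intervals above 1 and 2 below. Over all measured genes 12.7% lay above and 21.5% below, and at 1000 reads or more 19.8% and 46.6%. The median log2 ratio of the 7 was 0.16, beside -0.05 over all measured genes. The 2 entries below 1 were the main factors. EEF1A1 had a ratio of 0.884 (0.878 to 0.891) and EEF2 one of 0.929 (0.921 to 0.937). EEF1A1 stayed below 1 at 0.960 with the same sum and 0.990 with the same reads, while EEF2 turned to 1.01, with an interval that held 1, and to 1.04, with one above 1. Their intervals are narrow because each holds very many reads over both libraries, 307994 for EEF1A1 and 212928 for EEF2. Processed copies of such genes are common in mammalian genomes, and how reads from copies were treated is not known.

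The messenger RNAs of the eEF1A exchange complex differed from each other in ratio. EEF1D, a subunit with exchange activity, went from 5267 to 7435, at a ratio of 1.41 (1.36 to 1.46), and 81 of the 4139 genes with at least 1000 reads had a ratio as high or higher. EEF1B2, the other exchange subunit, went from 12059 to 13957, at a ratio of 1.16 (1.13 to 1.19). EEF1G, the structural subunit, was at a ratio of 0.990 (0.977 to 1.003) that turned to 1.07 with the same sum. EEF1D was at 0.171 (0.166 to 0.176) of the level of EEF1G in control and at 0.244 (0.238 to 0.250) in the SMAD4 siRNA library. EEF1B2 was at 0.391 (0.383 to 0.399) and 0.458 (0.449 to 0.466) of it. The level of EEF1A1 over that of EEF1B2 went from 7.17 to 5.48. These proportions do not depend on the scaling of the libraries.

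EIF5A had a ratio of 1.11 (1.09 to 1.14). EEF1E1 was low in both libraries, at 68.9 and 117 on 93 and 174 reads, with a ratio of 1.70 (1.31 to 2.21), the highest after EIF2S2.

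**Figure D4:**
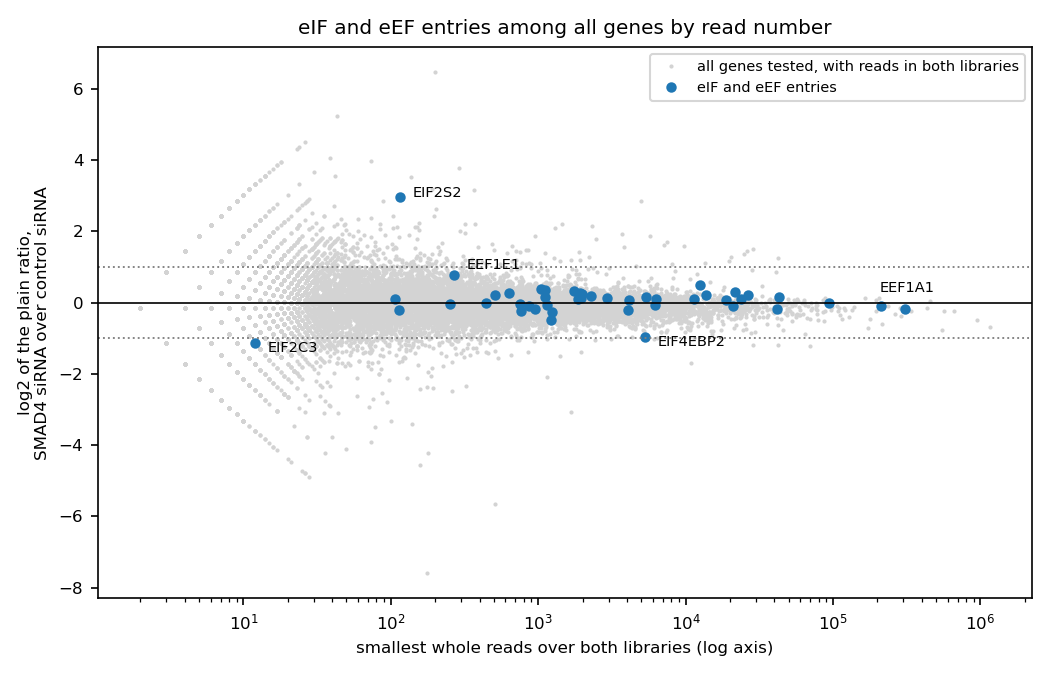
Plain ratio (log2) of all measured genes with reads in both libraries against their smallest whole reads over both libraries (log axis), in grey, with the 45 measured eIF and eEF entries in blue and dotted lines at 2-fold. The spread of all genes narrows with reads. EIF2S2, with 115 reads, lies at the upper edge of its read class and EIF4EBP2, with 5330 reads, at the lower edge of its own, while EIF2C3 rests on 12 reads.

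The 4 Argonaute entries that the rule takes all had a ratio below 1 as deposited, as did 9056 of the 16609 measured genes. Of the 4, 1 had an interval wholly below 1, beside 21.5% of all measured genes. EIF2C1 went from 84.1 to 70.3, at a ratio of 0.837 (0.748 to 0.937) whose interval held 1 under both other scalings. EIF2C2, the Argonaute that cleaves its targets, was at 237 and 225, a ratio of 0.947 (0.827 to 1.08) that turned to 1.03 with the same sum. EIF2C4 was at 50.4 and 43.4, with 0.861 (0.585 to 1.27). EIF2C3 was at 11.1 and 5.05 on 8 and 4 reads, a ratio of 0.454 (0.10 to 1.69), so its 2-fold call rests on a handful of reads. A further entry under the current symbol AGO3 was at 11.6 and 11.3 on 13 and 14 reads.

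The reference table named 9 entries without a symbol as genes of the same kind, of which 7 were measured and EEF1AKMT3 and EIF3B were listed at 0. Besides EIF1, EIF1B, EIF2B5, EIF2S3 and EIF4B these were EIF1AD, at 37.8 and 52.5 with a ratio of 1.39 (0.895 to 2.17), and EEF1AKMT1, a methyltransferase of eEF1A, at 1250 and 1311 with 1.05 (0.949 to 1.16). Of the 7, 1 had an interval wholly above 1 and 4 had one wholly below 1, beside 12.7% and 21.5% of all measured genes. Among genes with at least 1000 reads those shares were 19.8% and 46.6%. With the same sum 2 of them lay below 1 and with the same reads 1 did, beside 13.4% and 11.2% of all measured genes. At 1000 reads or more 27.7% and 22.7% did. Adding them to the 45 gave a median log2 ratio of 0.09.

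Genes that act on the factors showed no 2-fold difference among those measured. Of 7 kinase genes, 1 had an interval wholly above 1 and 3 wholly below, beside 12.7% and 21.5% of all measured genes. Their median log2 ratio was 0.01 beside -0.05 over all measured genes. EIF2AK3, the kinase that phosphorylates eIF2 under stress of the endoplasmic reticulum, went from 55.5 to 38.6, at a ratio of 0.695 (0.538 to 0.896). EEF2K, the kinase of eEF2, went from 291 to 229, at a ratio of 0.787 (0.734 to 0.844), and MKNK1, a kinase of eIF4E, from 249 to 212, at a ratio of 0.850 (0.759 to 0.950). With the same sum the interval of MKNK1 held 1, and with the same reads that of EIF2AK3 did too. The other kinase of eIF4E, MKNK2, went from 472 to 548, at a ratio of 1.16 (1.08 to 1.25). EIF2AK1 was at 431 and 433. EIF2AK2, the kinase switched on by double-stranded RNA and listed as PKR, was at 8.34 and 15.2 on 10 and 20 reads, a ratio of 1.82 (0.811 to 4.35) that held 1.

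Genes of the eIF2 phosphatase and the stress response behind it were counted in 1 list together with CDC123. Of the 8 measured, 4 had an interval wholly above 1 and 2 wholly below. Over all measured genes 12.7% lay above and 21.5% below, and at 1000 reads or more 19.8% and 46.6%. The median log2 ratio of the list was 0.13. ATF4, the transcription factor whose translation rises when eIF2 is phosphorylated, was at 7205 and 7488, a ratio of 1.04 (0.998 to 1.08) whose interval lay above 1 under both other scalings. On the higher side of the list was CHAC1, from 924 to 1169 with a ratio of 1.26 (1.18 to 1.36). So were TRIB3 with 1.17 (1.06 to 1.29) and ASNS with 1.15 (1.10 to 1.20). ATF3, in an entry without a symbol, was at 288 and 258 with 0.898 (0.659 to 1.22), and DDIT3 was listed at 0 in both libraries. On the higher side too was CDC123, which assembles the eIF2 complex, from 417 to 486 with 1.17 (1.04 to 1.30). The regulatory subunits of the eIF2 phosphatase were lower, PPP1R15B at 171 and 115 with 0.672 (0.512 to 0.881) and PPP1R15A at 587 and 535 with 0.912 (0.842 to 0.988). The interval of PPP1R15A held 1 with the same sum, and its ratio turned to 1.02 with the same reads.

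Release and recycling genes had 3 of 7 measured members with an interval wholly above 1 and 0 below, beside 12.7% and 21.5% of all measured genes. Their median log2 ratio was -0.05, as over all genes. The 3 were ETF1, the release factor that reads stop codons, from 478 to 590 with a ratio of 1.23 (1.14 to 1.33), ABCE1, which splits the subunits after termination, with 1.30 (1.07 to 1.59), and DENR with 1.31 (1.06 to 1.63). Among the poly(A) binding proteins and helicase partners 2 of 8 were above and 2 below, beside the same 12.7% and 21.5%, at a median log2 ratio of 0.20. PABPC1, which closes the message into a loop by binding eIF4G, went from 4483 to 3782, at a ratio of 0.844 (0.822 to 0.865), and PABPC4 had 0.845 (0.773 to 0.925), whose interval held 1 under both other scalings. PDCD4, an inhibitor of eIF4A, had 44 and 77 reads, values of 22.2 and 35.3 and a ratio of 1.59 (1.08 to 2.36).

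The mTORC1 list, which controls the eIF4E binding proteins, had 1 of 11 members above and 4 below, beside 12.7% and 21.5% of all measured genes and, at 1000 reads or more, 19.8% and 46.6%. MTOR had a ratio of 0.887 (0.847 to 0.930), RHEB 0.883 (0.844 to 0.922), LARP1 0.897 (0.843 to 0.954) and RPS6 0.956 (0.930 to 0.984). None of these 4 had an interval below 1 under either other scaling, where 6 of the 11 lay above 1 and 0 below. Over all measured genes 21.3% lay above and 13.4% below with the same sum, and 24.7% and 11.2% with the same reads. At 1000 reads or more 38.8% lay above 1 and 27.7% below with the same sum, and 45.5% and 22.7% with the same reads. RPS6 turned to 1.04 with the same sum and LARP1 to 1.003 with the same reads. RPS6KB1, the kinase of the ribosomal protein encoded by RPS6, went from 28.7 to 39.1, at a ratio of 1.36 (1.09 to 1.71). The median log2 ratio of the list was 0.01.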

How the data were processed

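Per the labels' protocols, 1 pooled library of granulosa cell RNA per siRNA was sequenced on an Ion Torrent Proton. Per the names of the deposited tables, the authors gave RPKM divided by an upper quartile. Not given in the sources used here are the aligner, the counter, the genome build and the annotation.

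Reads were recovered from the values. The commonest ratio between the libraries, 0.908163, is that of divisors 890 and 980, with which all 18428 genes above 0 gave whole reads at a length of up to 40000 bases (relative tolerance 6e-10, absolute tolerance 1e-06). The smallest such reads were used. If true reads are more, intervals are narrower. The steps were tested on simulated data.

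Ratios are SMAD4 siRNA over control. Medians and 2-fold calls use log2((value + 1)/(value + 1)) at a mean value of at least 1, a scale that understates changes of low genes. Entries without a symbol were named from a RefSeq table of Sscrofa11.1, used for names alone. All entries of the rule may be named, and of other lists those at either end or with an interval off 1. The members and lists were chosen with earlier results of these data known. No sequence table was used. Alternatives were pseudocounts, minimums, fold thresholds and scalings. Added after seeing the data were scaling to the same reads, a minimum of 1000 reads, and runs without the Argonaute entries, without EIF2S2 and with the entries without a symbol. Python 3.11.15, numpy 2.4.6, scipy 1.17.1, pandas 2.3.3 and matplotlib 3.10.9 were used.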

Additional observations from a re-analysis of the deposited data

How the results depend on the processing

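No paired analysis was possible because each group has 1 library. The median log2 ratio of the entries, 0.10, stayed above 0 under all 11 alternatives run for it, between 0.09 and 0.27, while the medians of the lower and upper limits of the counting intervals of the entries, -0.02 and 0.25, lie on either side of 0. The highest, 0.27, came with scaling to the same total of reads, which moves all genes alike. The log2 ratio of EIF2S2 stayed between 2.54 and 3.08 under its 5 alternatives. The 2.54 came with each library rescaled to a sum of 1e+06, where the added 1 weighs more on the smaller values. Its plain ratio with the same sum was 8.46. The number higher by 2-fold was 1, against 2 at 1.5-fold and 0 without EIF2S2. The number lower was 1, EIF2C3, against 2 at 1.5-fold. It was 0 with a pseudocount of 5, with centring on the median of all genes and with the same reads. It was also 0 with at least 100 reads, at 4-fold and without the Argonaute entries. With each library rescaled to a sum of 1e+06 it was 0 because EIF2C3 fell below the minimum mean value. The plain ratio of EIF2C3 with the same sum was 0.493. The number with an interval wholly below 1 was 10, against 4 with the same sum and 3 with the same reads. The number wholly above 1 was 20 and ran from 19 to 29 under its 6 alternatives. With 2 libraries, depth limits single ratios only as far as the counting intervals show, and the spread between animals is unknown.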

Other observations

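Enzymes that modify the factors after translation were also measured. Of 7 measured genes for the hypusine of eIF5A and the diphthamide of eEF2, 2 had a counting interval wholly above 1 and 0 below, beside 12.7% and 21.5% of all measured genes, with a median log2 ratio of 0.26. They were the enzymes of hypusine synthesis, DHPS, at 301 and 371 with a ratio of 1.23 (1.08 to 1.42), and DOHH, at 206 and 248 with a ratio of 1.20 (1.04 to 1.39). Their substrate EIF5A had a ratio of 1.11. The diphthamide enzymes DPH1, DPH2, DPH3, DPH5 and DPH6 had intervals that held 1 as deposited, and that of DPH5 lay above 1 under both other scalings.

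The mitochondrion has its own translation factors, outside the rule. Of 8 measured, with a median log2 ratio of -0.01, 1 had an interval wholly above 1 beside 12.7% of all measured genes, TUFM, the mitochondrial elongation factor that delivers aminoacyl-tRNAs, at 2755 and 2915 with a ratio of 1.06 (1.02 to 1.10). GFM1 and GFM2, mitochondrial relatives of eEF2, had ratios of 0.888 and 0.821 with intervals that held 1. TSFM was listed at 0 in both libraries.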
